A study of Mus musculus with 4 samples.

Results

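Glycolysis splits glucose into pyruvate in the cytosol, and lactate dehydrogenase then turns pyruvate into lactate. The 10 genes Hk1, Hk2, Pfkp, Aldoa, Tpi1, Pgk1, Pgam1, Eno1, Pkm and Ldha encode enzymes of this route, from the hexokinases that trap glucose to the lactate dehydrogenase subunit at its end. They were read from a gene count table by symbol, as 10 of its 56748 genes. Of these 10 genes, 10 passed the filter on low counts. The symbol Aldoa also stood on another row (ENSMUSG00000114515), which held between 8 and 16 counts. That row was left out, except from the share of all counts given at the end.

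The samples were lungs of BALB/cJ mice with metastases of 4T1, a mouse line of triple-negative breast cancer (TNBC). Female mice, 7 weeks old at injection, had received luciferase-expressing 4T1 cells through the tail vein. The 2 saline samples, whose labels give PBS as the treatment, were compared with 2 samples from mice given the antibody-drug conjugate (ADC) CD276-DM1 with cmLumiOpto gene therapy for 3 weeks. CD276-DM1 links an anti-CD276 antibody to mertansine, a microtubule inhibitor, and cmLumiOpto is a vector whose light-gated channel depolarizes the mitochondria of cancer cells. The labels give an ADC dose of 16 mg/kg and write the gene therapy as cmLumi-Olap, whereas the methods give another dose and do not use that name. They describe harvested tumor cells, whereas the methods describe dissociated lung tissue that carried metastases. Genes of normal lung were present in every sample, so the values below are those of a mixture of cells. In bulk samples, fewer cells of a type and less RNA per cell cannot be told apart. No ADC-only or cmLumiOpto-only sample was analysed here, so the parts of the combination cannot be told apart either.

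Tumor cells often run glycolysis to lactate even when oxygen is present, and most enzymes of the route have an isoenzyme that is high in tumors, such as HK2, PKM2 and LDHA. Many of these genes are targets of hypoxia-inducible factor 1 (HIF-1), which binds the letters ACGTG or GCGTG, and of MYC, which binds the E-box CACGTG. The route is controlled mainly at hexokinase, phosphofructokinase and pyruvate kinase, whereas the enzymes between them work close to equilibrium.

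The glycolysis genes lay lower after ADC/cmLumiOpto, with Hk2 and Eno1 the furthest below saline and the treated values of Ldha between the saline values. Levels are in CPM, counts scaled to the size of each library with the normalization factors of edgeR. Summed over the 10 genes, the level was 10589.7 and 9371 CPM in the saline samples and 7447 and 7575 CPM in the treated samples. The groups did not overlap, with means of 9980.4 ± 862 (SD, n = 2) and 7511 ± 90.2 (SD, n = 2). Pkm alone made up between 25.9% and 30.2% of this sum, a share of reads that is not scaled to gene length. In 9 of 10 genes the groups did not overlap and treatment was the lower one, and Ldha was the exception. The same order held for 28.8% of the 15320 genes tested, and the opposite order, seen in 0 of 10, for 28.1%. By edgeR's quasi-likelihood test, 6 of 10 genes (Hk1, Hk2, Pfkp, Pgam1, Eno1 and Pkm) were lower at an unadjusted p under 0.05, against 12.2% of all tested genes, and 0 were higher, against 11%. In either direction, 23.2% of the tested genes were below that p. The 10 genes were chosen with earlier results of these data known, so their contrast with these shares is a description and no independent test. After Benjamini-Hochberg adjustment over all tested genes in edgeR's quasi-likelihood fit, 0 of 10 had an adjusted p under 0.05, and the background was 0% as well. The median log2 fold change of the 10 genes was -0.50, and that of all tested genes was 0.03.

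The count past the adjusted threshold depended on the test. With DESeq2, 3 of 10 genes (Hk1, Hk2 and Eno1) fell at an adjusted p under 0.05, where 8.83% of all genes were called and 5.05% called lower. With the edgeR exact test, 2 of 10 (Hk2 and Eno1) fell, where 7.46% were called and 3.62% called lower. Without the filter on low counts, edgeR's quasi-likelihood fit put the same 3 genes as DESeq2 below an adjusted p of 0.05, where 8.84% were called and 4.05% called lower. At an unadjusted p under 0.05, 7 of 10 genes were lower with DESeq2, against 11.6% of all genes, and 7 of 10 without the filter, against 8.69%. The count of 6 at an unadjusted p under 0.05 rested in part on saline replicate 1, without which it was 2 (Hk2 and Eno1), against 8.55% of all genes lower in that fit. With that sample left out, saline is a lone sample that is assumed to vary like the treated pair, so the drop also reflects the lost estimate of spread. Saline replicate 1 had the higher value of the saline pair in 10 of 10 genes.

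**Figure D1:**
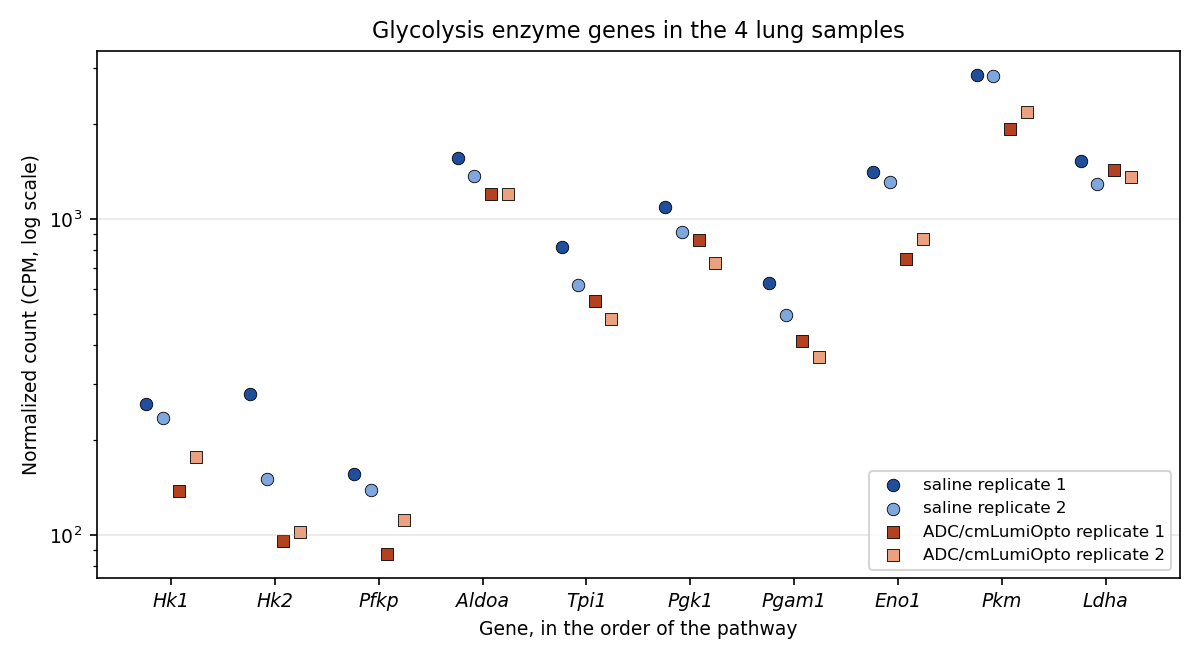
Normalized count in CPM on a log scale for each of the 10 genes, in the order of the pathway; circles are the 2 saline samples and squares the 2 ADC/cmLumiOpto samples. In 9 genes both squares lie below both circles, and in Ldha the squares, at 1427 and 1361 CPM, lie between the circles.

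Stretches of 250 bases upstream of the start sites were searched for the letters that HIF-1 and MYC bind, on both strands (RefSeq, GRCm38.p6). The 10 genes had 17 such windows. ACGTG or GCGTG stood in at least 1 window of 9 of 10 genes, with Tpi1 the exception, and 41.5% of 27025 genes had such a match. By windows, 13 of 17 held a match, against 38.6% of 32851. Some windows of a gene overlap, and windows 2 and 3 of Aldoa, like windows 2 and 3 of Eno1, count the same sites again. ACGTG was found in Hk2, Aldoa, Pgk1, Pgam1, Pkm and Ldha and GCGTG in Hk1, Pfkp, Pgam1, Eno1 and Ldha. The E-box CACGTG, which contains ACGTG on both strands, was found only in Ldha among the 10 genes, and in 6.86% of all genes. The windows shown are those of the genes with the largest differences, Hk2 and Eno1, of Pgk1 from the middle of the route, and of Ldha, whose values did not separate the groups. They run 5′ to 3′ along the strand of the gene and end at the base before the start site, and the capitals mark the matches on either strand. A match to ACGTG on the other strand is written CACGT, and a match to GCGTG there is written CACGC.
Hk2, chr6:82774455-82774704, minus strand: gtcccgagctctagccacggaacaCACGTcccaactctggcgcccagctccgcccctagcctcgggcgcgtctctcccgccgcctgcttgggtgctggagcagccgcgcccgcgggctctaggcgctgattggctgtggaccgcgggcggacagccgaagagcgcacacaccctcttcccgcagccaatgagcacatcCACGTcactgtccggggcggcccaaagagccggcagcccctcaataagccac
Pgk1, chrX:106186850-106187099, plus strand: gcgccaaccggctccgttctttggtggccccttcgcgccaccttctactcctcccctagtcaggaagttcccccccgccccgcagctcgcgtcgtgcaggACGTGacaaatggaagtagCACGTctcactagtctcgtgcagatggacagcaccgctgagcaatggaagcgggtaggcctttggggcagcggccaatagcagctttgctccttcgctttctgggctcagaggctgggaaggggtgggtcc
Eno1, window 2 of 3, chr4:150236947-150237196, plus strand: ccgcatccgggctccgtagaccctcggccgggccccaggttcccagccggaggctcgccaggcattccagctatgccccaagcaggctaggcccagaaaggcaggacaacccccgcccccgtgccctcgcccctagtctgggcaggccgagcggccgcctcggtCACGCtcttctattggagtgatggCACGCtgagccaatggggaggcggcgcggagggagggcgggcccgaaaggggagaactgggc
Ldha, window 1 of 2, chr7:46845554-46845803, plus strand: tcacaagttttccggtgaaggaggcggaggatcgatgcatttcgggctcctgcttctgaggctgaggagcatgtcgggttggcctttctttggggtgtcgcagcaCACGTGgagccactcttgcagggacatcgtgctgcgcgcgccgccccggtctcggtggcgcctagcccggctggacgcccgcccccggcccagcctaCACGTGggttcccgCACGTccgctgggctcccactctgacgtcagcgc
The matches in Hk2 begin 226 and 52 bases before the start site, and those in Pgk1 begin 150 and 131 bases before it. In Eno1, GCGTG stood 86 and 62 bases upstream. Ldha had the most matches in a window, 5 of ACGTG, of which 4 lie in the E-boxes that begin 145 and 48 bases upstream. A match of letters is a description of the window, and binding was not measured.

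Hexokinases phosphorylate glucose on entry into the cell, HK1 in most tissues and HK2 in muscle, fat and many tumors. Hk2 (ENSMUSG00000000628, chr6:82702006-82751435, minus strand) was read at 280.1 and 151 CPM in the saline samples and at 96.1 and 102 CPM in the treated samples. Positions of genes here are those listed with the counts, which differ from GRCm38 and for which the processing notes of the submitters name mm39. Both treated samples were low and close together, whereas the saline samples differed from each other by 1.86-fold. The mean was 215 ± 91.6 CPM (SD, n = 2) in saline and 99.2 ± 4.31 CPM (SD, n = 2) after treatment, or 46.0% of saline. The log2 fold change was -1.12 (standard error 0.29, edgeR quasi-likelihood adjusted p = 0.123). Its size was set in part by saline replicate 1, and was -0.61 without that sample and -1.50 without saline replicate 2.

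Hk1 (ENSMUSG00000037012, chr10:62104634-62215687, minus strand) had 261 and 235 CPM in saline and 138 and 177 CPM after treatment. The groups were clear of each other. The log2 fold change was -0.65 (standard error 0.19, edgeR quasi-likelihood adjusted p = 0.133), with a 95% interval from -1.10 to -0.21. As a share of the reads of both hexokinases, Hk2 took 51.8% (95% Wilson interval 50.7 to 52.8) and 39.0% (37.8 to 40.3) in the saline samples. It took 41.1% (39.6 to 42.6) and 36.6% (35.3 to 37.8) in the treated samples. These intervals cover counting error within a sample, and not the spread between samples. Saline replicate 1 stood above the other samples, and the groups overlapped. The log2 ratio of Hk2 to Hk1 differed by -0.39 between the groups (exact permutation test, two-sided p = 0.667). Saline replicate 1 set most of this difference, which was -0.015 without it and -0.76 without saline replicate 2.

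Phosphofructokinase makes the committed step of glycolysis, and Pfkp encodes its platelet-type subunit. Pfkp (ENSMUSG00000021196, chr13:6629804-6698813, minus strand) had 156 and 139 CPM in saline and 87.3 and 112 CPM after treatment. Neither treated sample reached the saline values, with means of 147 ± 12.5 and 99.6 ± 17.5 CPM (SD, n = 2 each). On the log2 scale the difference was -0.57 (standard error 0.19, edgeR quasi-likelihood adjusted p = 0.159). Gene length and log2 fold change were related across the table, with a Spearman's rho of -0.34 over 15320 genes, which share the same 4 libraries, and longer genes were the lower ones. Pfkp has the longest listed length of the 10 genes, 13401 bases, and with the length trend removed its log2 fold change was -0.26 (adjusted p = 0.419 in edgeR's quasi-likelihood fit), whereas 8 of 10 genes were lower at an unadjusted p under 0.05, against 9.87% of all genes. The transcripts of Pfkp and of Pitrm1, a gene on the opposite strand with between 1122 and 1550 counts, share 748 bases. Whether the libraries keep strand is not stated, so reads in that stretch cannot be assigned with certainty.

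Pfkl, the liver-type subunit, lay lower with Pfkp. It had 367 and 310.4 CPM in saline and 208 and 225 CPM after treatment, which is -0.65 on the log2 scale (edgeR quasi-likelihood adjusted p = 0.123). Pfkp took between 29.6% and 33.2% of the reads of the pair in the 4 samples. The log2 ratio of Pfkp to Pfkl was 0.07 higher after treatment (exact permutation test, two-sided p = 1), and was -0.05 without ADC/cmLumiOpto replicate 2. Pfkm, the muscle-type subunit, was at -0.53 on the log2 scale (edgeR quasi-likelihood adjusted p = 0.199).

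Aldolase A cleaves fructose bisphosphate into the triose phosphates, which triose phosphate isomerase interconverts. Aldoa (ENSMUSG00000030695, chr7:126394406-126399923, minus strand) had 1556 and 1375 CPM in saline and 1202 and 1201 CPM after treatment. The treated samples were nearly equal and lay below both saline samples, with a log2 fold change of -0.29 (95% interval -0.68 to 0.11). Tpi1 (ENSMUSG00000023456, chr6:124787549-124791259, minus strand) had 815 and 618 CPM in saline and 552 and 485 CPM after treatment. The treated samples were again the lower ones. The gap between the saline samples was larger than that between the nearest samples of the groups, 618 and 552 CPM. For Tpi1 the log2 fold change was -0.47 (standard error 0.20, edgeR quasi-likelihood adjusted p = 0.219) and was -0.27 without saline replicate 1.

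Phosphoglycerate kinase 1 makes the first ATP of the lower part of the route, and phosphoglycerate mutase 1 then moves the phosphate within its product. Pgk1 (ENSMUSG00000062070, chrX:105230706-105247305, plus strand) had 1091 and 913 CPM in saline and 859 and 728 CPM after treatment. The gap between the nearest samples of the groups, 913 and 859 CPM, was smaller than the gap within either group. Its log2 fold change was -0.34 (standard error 0.18, edgeR quasi-likelihood adjusted p = 0.309). Pgam1 (ENSMUSG00000011752, chr19:41900362-41907099, plus strand) had 629 and 498 CPM in saline and 412 and 366 CPM after treatment. Treatment was again the lower group, without overlap. Its log2 fold change was -0.53 (standard error 0.18, edgeR quasi-likelihood adjusted p = 0.167) and was -0.37 without saline replicate 1. With the length trend removed, the log2 fold change of Pgam1, the shortest of the 10 genes at 1982 bases, was -0.76 (adjusted p = 0.152 in edgeR's quasi-likelihood fit).

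Enolase 1 forms phosphoenolpyruvate, the substrate of pyruvate kinase. Eno1 (ENSMUSG00000063524, chr4:150321178-150333336, plus strand) had 1409 and 1314 CPM in saline and 748 and 866 CPM after treatment. The saline samples were close together and both treated samples lay well below them. The mean was 1362 ± 67.4 CPM (SD, n = 2) in saline and 807 ± 83.0 CPM (SD, n = 2) after treatment, or 59.3% of saline. This gave a log2 fold change of -0.75 (standard error 0.17, edgeR quasi-likelihood adjusted p = 0.116), with the lowest p of the 10 genes. With single samples left out it ranged from -0.87 to -0.65.

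Eno1 shares its sequence with copies that had their own rows. Eno1b (99.5% identical to the Eno1 transcript over 1736 bases) had between 4657 and 7574 counts, and the processed pseudogene Gm4735 (99.6% over 1302 bases) had between 4830 and 7205. The 6 copies found with blastn (at least 90% identity over at least 500 bases), of which 4 had a count, held 65.9% and 64.8% as many counts as Eno1 in saline and 72.3% and 74.0% as many after treatment. How reads that fit several genes were counted is not stated, so the division among these rows is uncertain. With the copies added to Eno1, the level was 2251 ± 122 CPM (SD, n = 2) in saline and 1398 ± 153 CPM (SD, n = 2) after treatment. Together they gave a log2 fold change of -0.69 (standard error 0.18, edgeR quasi-likelihood adjusted p = 0.123). Copies of Pgam1 held between 140 and 185 counts, those of Pkm between 286 and 395, those of Pgk1 between 69 and 78, those of Ldha between 65 and 79, and those of Aldoa and Tpi1 held 0. None was found for Hk1, Hk2 and Pfkp.

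**Figure D2:**
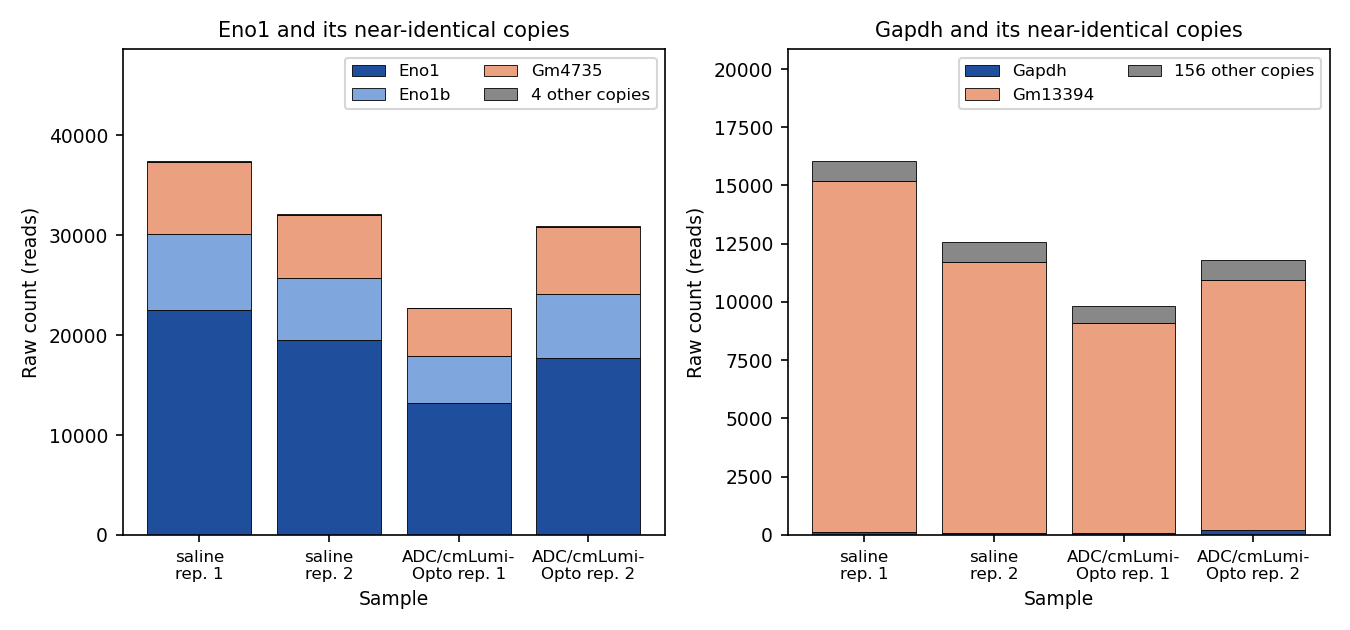
Raw read counts in the 4 samples, stacked by row of the table, for Eno1 with its 6 copies and for Gapdh with its 157 copies. The copies of Eno1 hold 64.8% to 74.0% as many counts as Eno1 itself, whereas nearly all Gapdh counts stand on the row of the pseudogene Gm13394.

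Pyruvate kinase makes pyruvate and ATP, and the Pkm gene encodes the PKM1 and PKM2 forms, which counts per gene do not separate. Pkm (ENSMUSG00000032294, chr9:59563651-59586658, plus strand) had 2866 and 2833 CPM in saline and 1925 and 2177 CPM after treatment. The saline samples were nearly equal and the treated samples both lower, with means of 2849 ± 23.0 and 2051 ± 178 CPM (SD, n = 2 each). Treated Pkm was thus at 72.0% of saline, a log2 fold change of -0.47 (standard error 0.17, edgeR quasi-likelihood adjusted p = 0.174).

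Lactate dehydrogenase A favors the step from pyruvate to lactate. Ldha (ENSMUSG00000063229, chr7:46490899-46505051, plus strand) had 1526 and 1296 CPM in saline and 1427 and 1361 CPM after treatment. The treated samples lay between the saline samples, with means of 1411 ± 163 and 1394 ± 46.4 CPM (SD, n = 2 each). The log2 fold change was -0.02 (standard error 0.17, edgeR quasi-likelihood adjusted p = 0.962), with a 95% interval from -0.43 to 0.40, and its sign turned under other scalings, other filters and with single samples left out. The median of the 10 genes, Ldha among them, was -0.50 and lay outside this interval. The log2 fold changes of Aldoa (-0.29) and Pgk1 (-0.34) lay inside it, and those of the other genes outside. The difference between Ldha and the other genes was not tested. Ldhb, the subunit that is high in heart, had 34.4 and 28.0 CPM in saline and 43.4 and 35.6 CPM after treatment. Its log2 fold change was 0.34 (edgeR quasi-likelihood adjusted p = 0.340). Ldha took 97.8% (95% Wilson interval 97.6 to 98.0) and 97.9% (97.7 to 98.1) of the reads of the pair in saline. It took 97.0% (96.8 to 97.2) and 97.5% (97.3 to 97.6) after treatment. The intervals again cover counting error only. Both treated shares were below both saline shares, and the log2 ratio differed by -0.35 (exact permutation test, two-sided, at the smallest p that 2 against 2 samples allow, which is above 0.05).

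Apart from shares of reads, levels were compared between genes only per length, as CPM per kilobase of the length listed in the table. In saline, Pkm was highest at 569.8 ± 4.59 (SD, n = 2), followed by Aldoa at 503 ± 44.1, Pgk1 at 446 ± 55.9 and Ldha at 426 ± 49.2. Pkm stood apart from Aldoa, whereas the ranges of Aldoa and Pgk1 and of Pgk1 and Ldha overlapped. Pgam1, Tpi1 and Eno1 formed a lower tier at between 253 and 284 CPM per kilobase, with ranges that overlapped between neighbors and lay below that of Ldha. The place of Eno1 depends on the division of reads with its copies, since with their counts added it was at 418.6 ± 22.6 CPM per kilobase, beside Ldha. The genes of the controlled upper steps were lowest, with Hk2 at 36.1 ± 15.3, Hk1 at 29.1 ± 2.13 and Pfkp at 11.0 ± 0.934 CPM per kilobase, and only the ranges of Hk2 and Hk1 overlapped among them. After treatment Ldha (421 ± 14.0), Aldoa (413 ± 0.129) and Pkm (410.1 ± 35.5) led the order, and their neighboring ranges overlapped. Hk1 (18.5 ± 3.26) then stood above Hk2 (16.6 ± 0.722), also with overlapping ranges. The listed lengths may include rarely used exons, and levels on this scale are then understated, by unequal amounts between genes. Eno1 is listed with 5379 bases and Pgk1 with 2244, whereas their longest protein-coding transcripts have 2027 and 1825 bases. The order of the genes, and the place of Eno1 with or without its copies, therefore holds only for the listed lengths.

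The other enzyme genes of the route did not lie to 1 side. Of 19 such genes listed, 13 were tested. At an unadjusted p under 0.05 in edgeR's quasi-likelihood fit, 2 of them (Pfkl and Pfkm) were lower and 1 (Hkdc1) higher. The shares of all tested genes were 12.2% and 11%. Their median log2 fold change was 0.18. This median is the value of the row of Gapdh alone, which was -0.71 with its copies added, as described below. Gpi1, the isomerase between hexokinase and phosphofructokinase, had 923 and 802 CPM in saline and 550.4 and 749 CPM after treatment. Both treated values were the lower ones, with a log2 fold change of -0.41 (edgeR quasi-likelihood adjusted p = 0.277). Hkdc1, a hexokinase-like gene, had at most 3.41 CPM in any sample and was at 2.03 on the log2 scale (edgeR quasi-likelihood adjusted p = 0.178). Isoenzymes of low level had log2 fold changes of either sign and passed neither threshold, with Hk3 at 0.71, Aldoc at -0.49, Pgam2 at 0.06, Eno2 at -0.63, Eno3 at 0.38 and Eno4 at 0.73. Bpgm, a mutase of red cells, was at 0.54.

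Gapdh, the dehydrogenase between Tpi1 and Pgk1, had only 114 and 98 counts in saline and 100 and 202 counts after treatment. These counts were below those of any of the 10 genes, and the row of the pseudogene Gm13394 (99.9% identical over 1000 bases) held between 9001 and 15064 counts. With all 157 copies added, 95 of which had a count, Gapdh had 1003 and 847 CPM in saline and 557 and 576 CPM after treatment. Both treated values were then below both saline values, with a log2 fold change of -0.71 (standard error 0.17, edgeR quasi-likelihood adjusted p = 0.123). The row of Gapdh alone gave 0.18 (standard error 0.36). The copies were searched after the values had been seen.

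**Figure D3:**
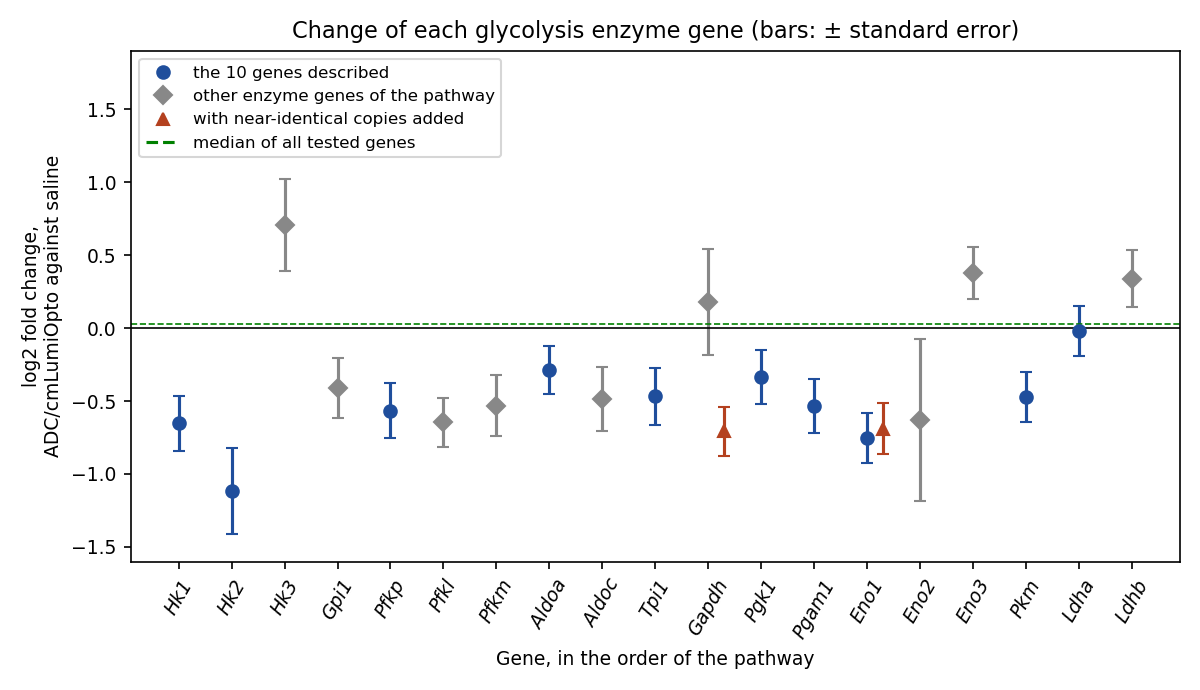
Log2 fold change of ADC/cmLumiOpto against saline, with bars of 1 standard error, for the 10 genes (circles) and for Gpi1, Gapdh and isoenzymes of the same steps (diamonds), in the order of the pathway; Hkdc1 (2.03), Pgam2, Bpgm and Eno4 are not drawn. Hk2 lies lowest at -1.12 and Ldha at -0.02, and with near-identical copies added (triangles) Gapdh moves from 0.18 to -0.71 and Eno1 from -0.75 to -0.69.

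Around the enzyme genes, regulators included genes that lay as far below saline as the members. Of 14 regulators tested, 3 were lower and 1 higher at an unadjusted p under 0.05 in edgeR's quasi-likelihood fit, against 12.2% and 11% of all genes. The lower ones were Pgm1 (log2 fold change -0.93), which links glycogen to glucose phosphate, Pdk1 (-0.88), the kinase that shuts pyruvate dehydrogenase, and Hif1a (-0.73), the regulated subunit of HIF-1. The higher one was Pfkfb4 (1.03), which sets an activator of phosphofructokinase. Their adjusted p-values lay between 0.116 and 0.143. Of 15 hypoxia-response genes outside glycolysis, 5 were lower, against the same 12.2%, and 0 higher, with a median of -0.33, and the furthest below saline was Ndrg1 at -1.04 (adjusted p = 0.123 in the same edgeR fit). Kdm3a (-0.81), Car9 (-0.76), the carbonic anhydrase of hypoxic tumors, and Egln1 (-0.64), an oxygen sensor that marks HIF-1 for decay, were also lower at an unadjusted p under 0.05.

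Transport and the routes that branch from glycolysis were read against the 23.2% of all tested genes at an unadjusted p under 0.05 in either direction. Of 8 glucose and lactate transporter genes, 0 were lower and 1 (Slc16a7, 0.97) higher at an unadjusted p under 0.05 in edgeR's quasi-likelihood fit. Slc2a1, the glucose transporter GLUT1, had 279 and 112 CPM in saline and 101 and 125 CPM after treatment, so that the groups overlapped and saline replicate 1 alone was high. Of 8 pentose phosphate genes, 1 (Taldo1, 0.57) was higher and 0 were lower. Of 5 gluconeogenesis genes tested, 1 was higher, Fbp2 (2.17), at no more than 4.83 CPM. Of 23 genes of pyruvate dehydrogenase and the TCA cycle, 2 (Pdha1, -0.43, and Dlat, -0.44) were lower and 1 (Mpc2, 0.47) was higher, with a median of 0.00. Over all 7 lists outside the 10 genes, 18 of 86 tested genes passed this p, a share near that background, and 18 of 86 passed with the length trend removed, against 19.8%.

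**Figure D4:**
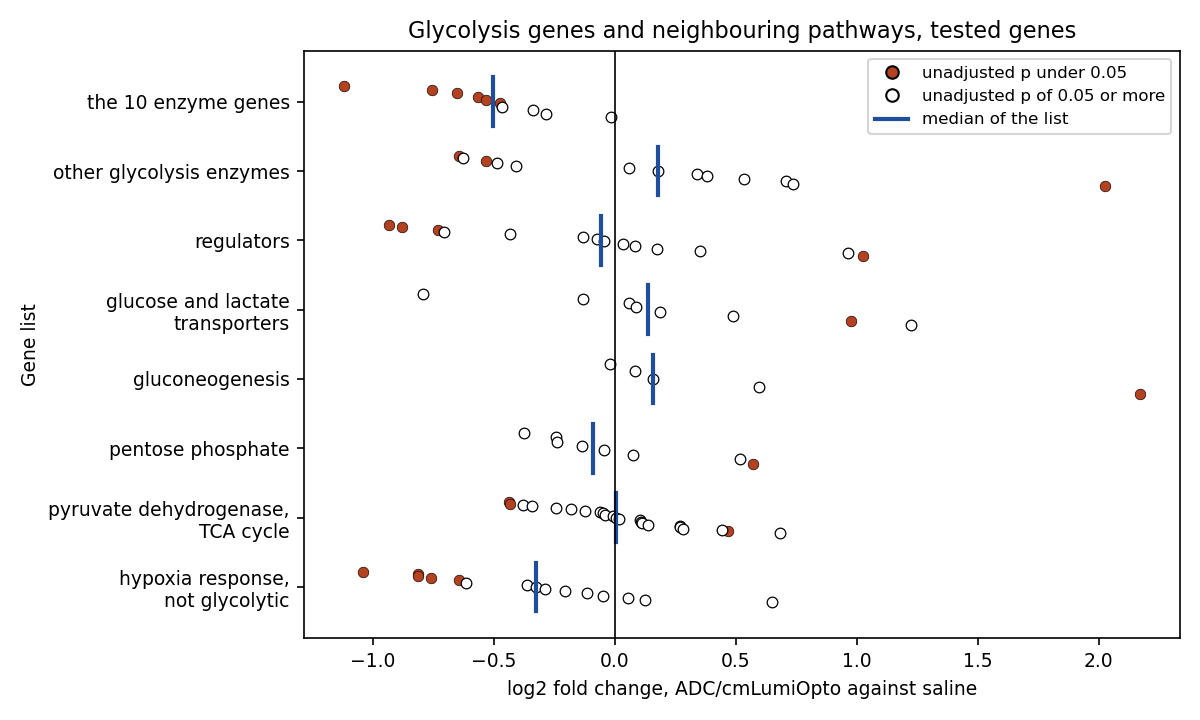
Log2 fold change of every tested gene in the list of the 10 enzyme genes and in 7 lists around it; filled points have an unadjusted p under 0.05 and vertical bars are list medians. The median of the 10 genes is -0.50 and that of the 15 hypoxia-response genes -0.33, whereas the medians of the other lists lie between -0.09 and 0.18. The median of 0.18, that of the other glycolysis enzymes, is the value of the Gapdh row without its copies.

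Markers of several other cell types differed between the groups. The summed level of 6 epithelial markers, Epcam among them, was 2947 and 3310 CPM in saline and 2917 and 2847 CPM after treatment. By sign, 3 of these markers lay higher and 3 lower. The list covers epithelium and carcinoma together, so it does not separate tumor cells from lung epithelium. At an unadjusted p under 0.05 in edgeR's quasi-likelihood fit, 0 of 6 differed. The counts of markers higher or lower that follow are counts at that p, unless said to be by sign. Of all tested genes, 11% were higher and 12.2% lower at that p. Of 5 alveolar type 2 markers 4 were higher, with sums of 1546 and 399 CPM in saline and 5331 and 4504 CPM after treatment. Club cell markers were higher in 3 of 3, with sums of 1145 and 79.1 CPM against 6188 and 2944 CPM. Of 5 fibroblast markers 5 were lower, with sums of 5044 and 3461 CPM against 1717 and 1396 CPM, and 3 of 4 proliferation markers were lower, with 952 and 959 CPM against 592 and 535 CPM. Neutrophil markers were higher in 4 of 4, and their sum of 7302 CPM in ADC/cmLumiOpto replicate 2 stood far above the 425 to 1065 CPM of the other samples. Pan-leukocyte markers were higher in 3 of 4, with 596 and 354 CPM against 744 and 981 CPM, and T cell markers in 2 of 4, with 19.0 and 5.80 CPM against 46.1 and 21.7 CPM. Endothelial markers were higher in 2 of 5 (427 and 343 CPM against 418 and 628 CPM) and erythroid markers in 1 of 3 (988 and 317 CPM against 1554 and 1806 CPM). Of 4 macrophage markers 1 was lower, with sums of 644 and 659.5 CPM against 557 and 501 CPM. By sign alone, 4 of 4 pan-leukocyte, 4 of 4 T cell, 4 of 5 endothelial and 3 of 3 erythroid markers lay higher. By sign, all 4 proliferation markers lay lower, and of the 4 macrophage markers 2 lay higher and 2 lower. None of these markers was at 0 in every sample. Their part in the values of the glycolysis genes was not tested. Without ADC/cmLumiOpto replicate 2, where the lone treated sample is assumed to vary like the saline pair, 5 of 10 glycolysis genes were lower at an unadjusted p under 0.05, against 12.8% of all genes, and their median log2 fold change was -0.51.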

How the data were processed

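RNA sequencing of 2 saline and 2 ADC/cmLumiOpto lung samples was used, and groups follow the sample labels. The values are counts, whole numbers of reads assigned to each gene, which the authors deposited unnormalized. Their methods name HISAT2 and GRCm38, and the submitters' processing notes name mm39. Of 52073 gene identifiers shared with the GRCm38 annotation, 1435 had the same start and end and 50383 the same span, so gene positions are given as listed and only promoter windows are in GRCm38. The counting program and its use of strand are not given in the sources used here. The methods give 4 samples per group, of which 2 per group were analysed here. Whether these are separate mice is not stated in the labels, so p-values refer to the spread between these samples. In the edgeR fit, the spread of each gene is estimated with information shared across all tested genes.

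Total counts were between 15263375 and 19675436 per sample, where 3 counts, the floor, correspond to 0.152 to 0.197 CPM for counting error only. The 10 genes, with the low row of Aldoa included, took 1.05% (95% Wilson interval 1.05 to 1.06) and 0.911% (0.906 to 0.916) of the counts in saline. They took 0.736% (0.732 to 0.740) and 0.790% (0.786 to 0.793) after treatment. These intervals cover counting error only.

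The fit used edgeR 4.0.16 in R 4.3.3 (filterByExpr with a minimum count of 10 and a total of 15, TMM, glmQLFit and glmQLFTest), with Benjamini-Hochberg adjustment over 15320 genes and a threshold of 0.05. A prior count of 0.125 was used for log2 fold changes, and the standard error is the log2 fold change divided by the square root of F. Alternatives were DESeq2 1.42.0, the edgeR exact test, other scalings and filters, a replicate block, removal of a lowess trend (span 0.3) on gene length, protein-coding genes, added copies (blastn 2.17.0) and each sample left out. The script was tested on simulated data. The members and gene lists were chosen with earlier results of these data known. All 10 members are named, with isoenzymes of their steps, Gapdh and Gpi1, and up to 4 genes of each other list with the smallest unadjusted p under 0.05; Slc2a1 was named after its values were seen.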

Additional observations from a re-analysis of the deposited data

How the results depend on the processing

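Of the 10 genes, 9 kept the direction of their log2 fold change under all alternatives run. The exception was Ldha, which turned to 0.026 by library size, 0.067 by upper-quartile scaling, 0.020 with at least 10 counts in every sample and 0.011 with protein-coding genes only, and ranged from -0.128 (without saline replicate 2) to 0.093 (without saline replicate 1) when single samples were dropped. Upper-quartile scaling put the median of all genes at 0.11 and that of the 10 genes at -0.42. The number of genes with an adjusted p under 0.05, 0 in the quasi-likelihood fit with 3553 at an unadjusted p under 0.05, was 1353 with DESeq2, 1143 with the edgeR exact test, 2259 of 25563 without the filter, 607 with the replicate block, and between 0 and 218 with each sample left out. The 10 genes accounted for 3, 2, 3 and 0 of the calls of the first 4. The replicate numbers are not said to mark a shared batch or animal. Same-numbered samples correlated at r = 0.0985 in their deviations over genes. With the replicate block the count of the 10 genes at an unadjusted p under 0.05 was again 6, with Tpi1 in place of Pkm. That count, 6 in the quasi-likelihood fit, was between 2 (without saline replicate 1) and 7 with each sample left out, where the lone sample of a group is assumed to vary like the other group, and 8 with the length trend removed, where Pfkp was lost and Aldoa, Tpi1 and Pgk1 were gained. The adjusted p of Hk2 lay between 6.20e-06 (without the filter) and 0.252 (without saline replicate 1). The log2 ratio of Hk2 to Hk1 ranged from -0.76 to -0.015 and that of Pfkp to Pfkl from -0.054 to 0.19 when single samples were dropped. The causes were not tested. Of 86 other pathway genes tested, 18 passed an unadjusted p of 0.05 in the quasi-likelihood fit (23.2% of all genes) and 18 with the length trend removed (19.8%). With 2 samples per group the 95% interval of Ldha ran from -0.43 to 0.40, so a smaller difference was not detectable.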
